A study of Mus musculus with 6 samples.

Results

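The small leucine-rich proteoglycans are secreted matrix proteins, and 10 of their genes, Fmod, Dcn, Lum, Bgn, Ogn, Prelp, Omd, Aspn, Podn and Kera, were taken by name from a total of 39174 genes measured in the sciatic nerve. All 10 were in the tables, and 9 of them were among the 21285 genes that could be tested, since Kera was below the minimum of 0.1 FPKM (fragments per kilobase of transcript, relative to all fragments mapped) in the mean of either genotype. Total RNA had been prepared from whole sciatic nerves of adult mice, given as 12 months old in the text of the study, 3 of them wild type (numbered 2, 4 and 5) and 3 of them Plekhg5-deficient (numbered 2, 3 and 5), and 1 RNA sequencing library was made per animal. Wild-type and Plekhg5-deficient mice differ in Plekhg5, which encodes a guanine nucleotide exchange factor, and how the allele was made and the strain background are not stated in the sources used here. The labels name no promoter or cell type to which the loss is limited, and whether both nerves of an animal were pooled is not stated.

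Proteins of this family carry a solenoid of leucine-rich repeats, and most bear chondroitin, dermatan or keratan sulfate chains. They bind fibrillar collagen, set the diameter and spacing of fibrils, and hold growth factors such as TGF-beta in the matrix. In peripheral nerve, collagen fibrils fill the endoneurium between axons and the epineurium around the fascicles, and fibroblasts are the main source of decorin and lumican, whereas the perineurium between these layers is a sheath of flattened epithelioid cells. Fibromodulin, the product of Fmod, binds type I collagen and the cross-linking enzyme lysyl oxidase and is best known from tendon and cartilage.

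Of the members, Fmod had the largest difference between genotypes. The 3 Plekhg5-deficient nerves had 11.2, 7.34 and 7.43 FPKM of Fmod and the 3 wild-type nerves 26.6, 58.2 and 32.8 FPKM. The abundant members Dcn, Lum and Bgn overlapped between genotypes, and no member passed the test over all genes at an adjusted p under 0.05.

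The 250 bases before the transcription start are shown for Fmod and for Prelp, because both genes lie next to each other on chromosome 1 and had the lowest and the next lowest fold change of the members. The sequences are from RefSeq on the build GRCm38.p6, written 5′ to 3′ along the strand of the gene, and capitals mark motif matches on either strand. The motifs searched were the TATA box, spelled TATAAA, the CCAAT box, spelled by its name, the Sp1 box, with the letters GGGCGG, the AP-1 element, in which TGANTCA was looked for, the Smad element, whose letters are CAGAC, and the NF-kB element. The first lies at chr1:134037004-134037253 on the plus strand and the second at chr1:133921402-133921651 on the minus strand.
Fmod: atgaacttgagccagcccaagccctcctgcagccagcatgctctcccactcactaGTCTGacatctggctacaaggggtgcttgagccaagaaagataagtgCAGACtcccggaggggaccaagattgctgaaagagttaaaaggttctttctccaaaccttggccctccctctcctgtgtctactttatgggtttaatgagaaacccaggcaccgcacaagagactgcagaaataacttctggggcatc
Prelp: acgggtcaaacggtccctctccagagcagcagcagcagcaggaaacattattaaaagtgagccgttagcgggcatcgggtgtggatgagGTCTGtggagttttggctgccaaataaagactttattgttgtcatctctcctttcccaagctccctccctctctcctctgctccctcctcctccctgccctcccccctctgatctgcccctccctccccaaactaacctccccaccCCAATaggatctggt
The Fmod window held the Smad element CAGAC at -195 to -191 on the minus strand and at -148 to -144 on the plus strand, counted from the base before the start as -1. Prelp held 1 Smad element at -161 to -157 on the minus strand and a CCAAT box at -15 to -11. Of all 32851 promoter windows of this length in RefSeq, 42.2% held a Smad element and 33.8% a CCAAT box. The NF-kB element, which was of interest because Plekhg5 has been linked to NF-κB, was in 3.9% of all windows and in none of the 8 members with an entry, while E-boxes (CANNTG), present once in the Fmod window and in 66.2% of all windows, are not capitalized. Other members differed in their matches, with 3 Sp1 boxes in Bgn, of which 2 overlap, and 3 CCAAT boxes in Kera. Ogn held overlapping TATA boxes, at -229 to -224 on the minus strand and at -227 to -222 on the plus strand. Aspn held TATA boxes at -207 to -202 and at -178 to -173, and a CCAAT box at -229 to -225. Podn held Sp1 boxes at -202 to -197 and at -70 to -65 in the first of its windows. These matches describe letters in a window and say nothing of binding.

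Plekhg5 itself was measured at 3.65, 4.13 and 5.26 FPKM in the wild-type animals, against 0.141, 0.140 and 0.0521 FPKM in the Plekhg5-deficient animals. Its mean was 39.1-fold lower, with an adjusted p = 0.0380 from limma. All FPKM given here were divided by a factor per library (0.745 in Plekhg5-deficient nerve 5, 0.991 to 1.12 in the others). Haemoglobin took 16.0% of all FPKM in Plekhg5-deficient nerve 5 and 0.507% to 2.56% in the other libraries. Summed skeletal muscle markers ranged from 208 to 37260 FPKM in the Plekhg5-deficient animals and from 2172 to 13920 FPKM in wild-type nerves, and summed lymphoid markers reached 387 FPKM in wild-type nerve 5 and no more than 90.6 FPKM elsewhere. Schwann cell markers were high throughout, with a summed level of 10900 to 19690 FPKM in wild-type and 11440 to 19470 FPKM in the Plekhg5-deficient animals. The Y-linked Ddx3y was measured in all libraries, at 4.76 to 6.56 FPKM. Since these are whole nerves, fewer cells of a type and less RNA per cell cannot be told apart for any gene below.

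Fmod (ENSMUSG00000041559) lies on chromosome 1 of GRCm38 from 134037254 to 134048277 on the plus strand, and no other annotated gene overlaps it. Its level was 39.2 FPKM ± 16.7 (SD, n = 3 animals) in wild-type nerves and 8.66 ± 2.21 (SD, n = 3) in the Plekhg5-deficient animals, a mean 4.52-fold lower. The lowest wild-type nerve was 2.37 times the highest Plekhg5-deficient nerve, so the genotypes did not overlap. Within the wild-type group, nerve 4 had about the sum of the other two nerves, and the Plekhg5-deficient nerves lay closer together, with a coefficient of variation of 25.5% against 42.7%. The 95% intervals that Cufflinks gave for a single library had a half-width of 5.49% to 12.7% of the Fmod value, below the coefficient of variation among animals of either genotype.

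The log2 fold change of Fmod was -2.0 (SE, the standard error, 0.32), on the scale of log2(FPKM + 1), with an unadjusted p = 0.000561 and an adjusted p = 0.334 from limma over the 21285 genes tested. Fmod therefore did not pass the test, and it ranked 35 by p among these genes, while 0.047% of them had a lower fold change. Of all genes tested, 0.0376% passed at an adjusted p under 0.05, 5.88% had every Plekhg5-deficient nerve below every wild-type nerve, and 2.69% were lower at an unadjusted p under 0.05. The study, which used the Cufflinks package for its test, named Fmod among transcripts lower at q < 0.05 in the same libraries. From published data it placed Fmod with transcripts enriched in isolated Schwann cells. The value of Fmod here is not independent of that choice by the study. The direction was the same without any single library. Without wild-type nerve 4, the highest, the log2 fold change was -1.68, and without both libraries numbered 5 it was -2.02. With the FPKM as deposited, 29.1, 65.0 and 32.5 in wild-type and 12.2, 7.73 and 5.53 in Plekhg5-deficient nerves, the genotypes were again separate.

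**Figure D1:**
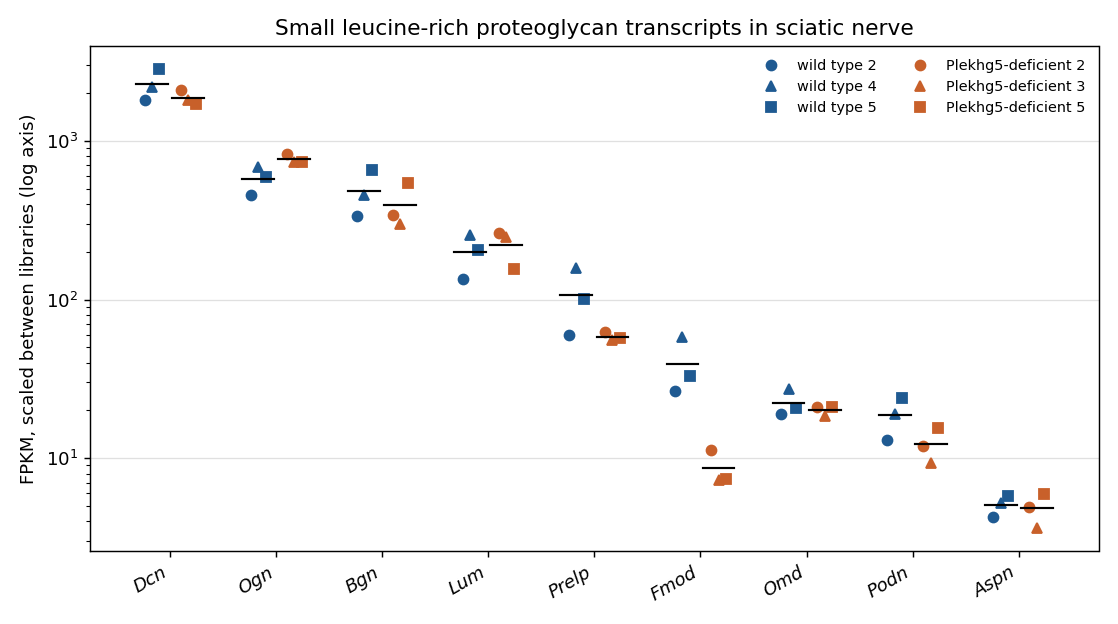
FPKM, scaled between libraries, of 9 members in 3 wild-type (blue) and 3 Plekhg5-deficient (orange) sciatic nerves, on a log axis, with genes ordered by mean. Kera is left out because it was below the minimum of 0.1 FPKM and was not tested. Symbols stand for libraries and bars for means of 3, and the Fmod symbols of the genotypes are far apart, with 26.6 FPKM in the lowest wild-type and 11.2 in the highest Plekhg5-deficient nerve.

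The other members were ordered by level as Dcn, Ogn, Bgn, Lum, Prelp, Omd, Podn and Aspn, with Fmod between Prelp and Omd in wild-type nerves and between Podn and Aspn in Plekhg5-deficient nerves. In wild-type nerves, Ogn (577 FPKM ± 115, SD, n = 3) and Bgn (481 ± 160) did not differ beyond their spread, and neither did Omd (22.4 ± 4.41) and Podn (18.7 ± 5.47). Dcn alone made up 52.4% to 63.5% of the summed FPKM of the 10 genes in a library. That sum was 2866, 3860 and 4472 FPKM in wild-type and 3646, 3191 and 3247 FPKM in the Plekhg5-deficient animals, which overlapped.

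Dcn encodes decorin, the most abundant of these proteoglycans in nerve, which binds type I collagen and TGF-beta. It lies on chromosome 10 from 97479500 to 97518162 and was measured at 1814, 2199 and 2840 FPKM in wild-type and 2102, 1811 and 1702 FPKM in the Plekhg5-deficient animals. The log2 fold change was -0.27 (SE 0.33, limma adjusted p = 0.978). Wild-type nerve 5 was the highest, and wild-type nerve 2 lay within the range of the Plekhg5-deficient nerves. Without wild-type nerve 5 the log2 fold change was -0.11.

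Bgn encodes biglycan, the closest relative of decorin, which also acts as a signal of matrix damage through Toll-like receptors when it is set free. It is located on chromosome X from 73483602 to 73495933. Its values were 337, 453 and 654 FPKM in wild-type and 343, 299 and 546 FPKM in the Plekhg5-deficient animals, with a log2 fold change of -0.28 (SE 0.35, limma adjusted p = 0.980). In both genotypes the library numbered 5 was the highest. The mean log2 ratio of Dcn to Bgn was higher by 0.011 in Plekhg5-deficient nerves, with overlap (exact two-sided permutation p = 1).

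Lum encodes lumican, a keratan sulfate proteoglycan that binds the same region of type I collagen as fibromodulin. It lies 47.3 kb from Dcn, from 97565501 to 97572703 on chromosome 10. Lum was measured at 135, 253 and 207 FPKM in the wild-type animals, against 261, 249 and 155 FPKM in the Plekhg5-deficient animals (log2 fold change 0.17, SE 0.32, limma adjusted p = 0.984). The genotypes overlapped almost fully, and the sign of the difference turned without wild-type nerve 2 (-0.076).

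Prelp encodes a proline- and arginine-rich protein that anchors basement membranes to collagen through heparan sulfate. It is on chromosome 1 from 133910304 to 133921414 on the minus strand, 115.8 kb from Fmod with no protein-coding gene in between. Prelp was measured at 59.5, 159 and 100.2 FPKM in wild-type and 62.5, 55.5 and 56.8 FPKM in the Plekhg5-deficient animals, 1.82-fold lower in the mean, with a log2 fold change of -0.75 (SE 0.35, limma adjusted p = 0.974). The Plekhg5-deficient nerves lay close together, at 58.3 ± 3.73 FPKM (SD, n = 3), while wild-type nerve 2 was below the highest of them. The difference was -0.40 without wild-type nerve 4 and -1.09 without wild-type nerve 2, so it rests on which wild-type libraries are counted.

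Ogn encodes osteoglycin, also named mimecan, a small keratan sulfate protein of collagen-rich tissue. It lies on chromosome 13 from 49608071 to 49624500. Ogn was measured at 457, 687 and 588 FPKM in wild-type and 828, 738 and 738 FPKM in the Plekhg5-deficient animals. It was the one member higher in all 3 Plekhg5-deficient animals than in any wild-type animal, a separation that 5.69% of all genes tested had as well, but the genotypes overlapped with the FPKM as deposited (501, 768 and 583 against 904, 777 and 549). The mean was 1.33-fold higher, with a log2 fold change of 0.43 (SE 0.25, limma adjusted p = 0.974).

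Omd, Aspn and Podn were low members. Omd encodes osteomodulin, a keratan sulfate proteoglycan known from bone, and had 22.4 FPKM ± 4.41 (SD, n = 3) in the wild-type animals and 20.1 ± 1.5 in the Plekhg5-deficient animals (log2 fold change -0.13). Aspn encodes asporin, a relative of decorin without glycosaminoglycan chains, and had 5.08 ± 0.755 and 4.83 ± 1.14 FPKM (log2 fold change -0.073). The sign of Omd turned without wild-type nerve 4 (0.010) and that of Aspn without Plekhg5-deficient nerve 3 (0.080).

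Podn encodes podocan, a more distant relative that binds collagen and is known from vessel walls and kidney. It was measured at 13.0, 19.1 and 24.0 FPKM in wild-type and 12, 9.38 and 15.4 FPKM in the Plekhg5-deficient animals, with a log2 fold change of -0.56 (SE 0.28, limma adjusted p = 0.974). The genotypes overlapped in these values and did not with the FPKM as deposited. The annotated locus of Podn, on chromosome 4 from 108014791 to 108096445, overlaps Scp2 on the same strand, which was at 55.7 FPKM, so the Podn values are uncertain where reads could be shared. The Ogn, Omd and Aspn loci overlap Cenpp on the opposite strand, at 1.13 FPKM. Kera, which encodes keratocan of the cornea, was listed at 0.0658, 0.0333 and 0 FPKM as deposited in wild-type and 0, 0.0234 and 0 in Plekhg5-deficient nerves, and no fold change is given.

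Of the 9 members tested, 7 had a log2 fold change below 0 and 2 above, with a median of -0.27, or -0.20 without Fmod. Over all genes tested, 48.9% were below 0 and the median was 0.0065. At an adjusted p under 0.05 from limma 0 members passed, and at an unadjusted p under 0.05 Fmod alone was left. The median of the members was between -0.44 and -0.10 under the alternatives run. By library, 6 of the 9 members were lowest in Plekhg5-deficient nerve 3, and 3 each were highest in wild-type nerves 4 and 5.

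Of 7 other genes of the family, 6 could be tested. Ecm2, next to Aspn on chromosome 13, was at 11.6, 16.8 and 15.1 FPKM in wild-type and 13.2, 9.94 and 10.2 FPKM in the Plekhg5-deficient animals. Tsku, which encodes tsukushi, an inhibitor of several secreted signals, was at 2.63, 3.54 and 4.65 against 1.94, 1.94 and 2.76 FPKM. Epyc and Optc, the neighbours of Kera and Prelp, had log2 fold changes of 0.21 and -0.34, and Podnl1 and Chad of -0.21 and -0.036. All 6 overlapped between genotypes, except that Tsku was separate with the FPKM as deposited, with none at an unadjusted p under 0.05 from limma. Nyx was not tested.

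**Figure D2:**
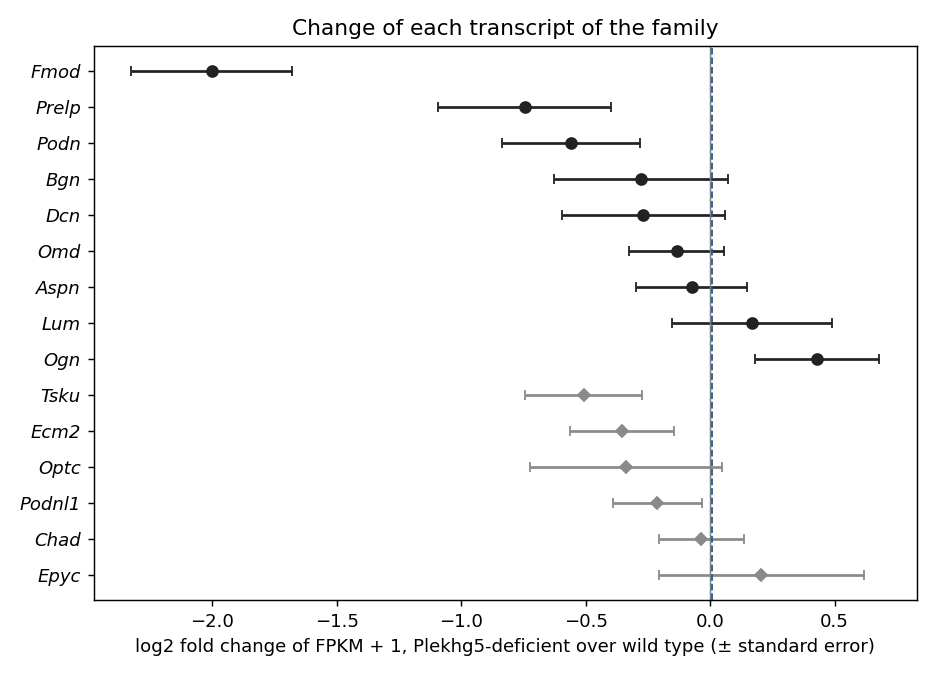
Log2 fold change with its standard error, Plekhg5-deficient over wild-type nerves (3 libraries each), of the 9 members tested (black circles) and 6 further genes of the family (grey diamonds), with the median of all genes tested as a dashed line. Fmod stands at -2.0, and the next lowest member is Prelp at -0.75.

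Most genes of the family lie in clusters on 3 chromosomes. On chromosome 1, Prelp lies between Optc (2304 bases away) and Fmod, and the log2 fold changes of Optc, Prelp and Fmod were -0.34, -0.75 and -2.0. On chromosome 10, Dcn and Lum had log2 fold changes of -0.27 and 0.17, with overlap in their ratio, and Kera was near 0 FPKM. On chromosome 13, the 4 genes Ecm2, Aspn, Omd and Ogn lie within 11.7, 15.2 and 15.5 kb of each other, with fold changes of -0.35, -0.073, -0.13 and 0.43.

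Ratios between members within a library do not depend on the scaling between libraries. Fmod made up 0.927%, 1.51% and 0.734% of the summed FPKM of the 10 genes in wild-type nerves and 0.308%, 0.230% and 0.229% in Plekhg5-deficient nerves. The share was thus 1.06% ± 0.402 (SD, n = 3) against 0.256% ± 0.0451, with no overlap (exact two-sided permutation test, p = 0.1, the smallest that 3 against 3 animals can give). The share of Ogn was 15.6% ± 2.34 in wild-type and 22.9% ± 0.232 in Plekhg5-deficient nerves.

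Relative to each of the other 8 members tested, Fmod was lower in all 3 Plekhg5-deficient animals than in any wild-type animal. For Lum, its partner on collagen, the log2 ratio of Fmod to Lum was -2.35, -2.12 and -2.65 in wild-type and -4.54, -5.08 and -4.38 in Plekhg5-deficient nerves, so that Lum was 4.36 to 6.29 times Fmod in the former and 20.8 to 33.9 times in the latter. The difference in the log2 ratio ranged from -1.37 for Prelp to -2.55 for Ogn, and was -1.86 for Dcn. Among all 36 pairs of members, 16 did not overlap, of which 8 hold Fmod. The pairs share genes and are not independent, and of all pairs of tested genes above 0 in every library 11.6% did not overlap. Ogn was in 5 such pairs, Prelp and Podn in 4 each, Omd in 3 and Dcn, Lum, Bgn and Aspn in 2 each. Each of the 16 had an exact permutation p = 0.1, the smallest possible, or 0.225 adjusted over the 36 pairs. Apart from Fmod, the ratio of Ogn to Dcn was higher by 0.70 on the log2 scale in Plekhg5-deficient nerves, and that of Lum to Prelp by 0.92.

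**Figure D3:**
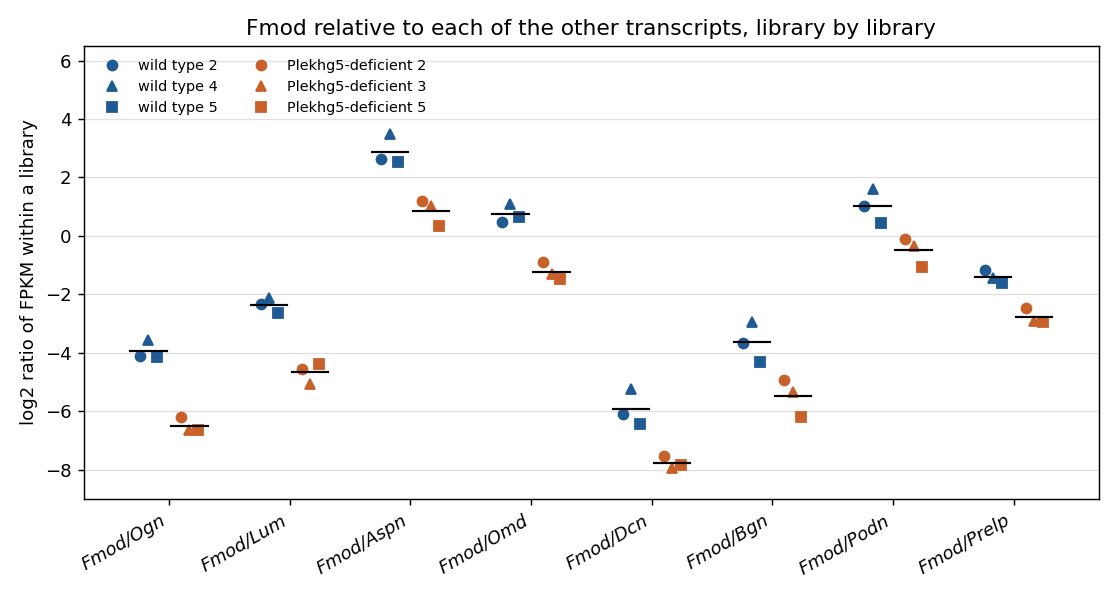
Log2 ratio of the FPKM of Fmod to that of each of 8 other members within the same library, for 3 wild-type (blue) and 3 Plekhg5-deficient (orange) nerves, with bars at the means of 3. In each pair the genotypes are separate, from a difference of -2.55 for Ogn on the left to -1.37 for Prelp on the right.

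Genes whose pattern over the 6 libraries was most like that of Fmod were searched among 14964 genes averaging 1 FPKM or more, by the Pearson correlation of log2(FPKM + 1). The closest were Col6a5 (r = 0.997), Eps8l1 (0.996), Serpinh1 (0.995), Dpt (0.994) and Col2a1 (0.993), all of which were highest in wild-type nerve 4. These correlations describe 6 libraries of 2 genotypes, and no p is given. Serpinh1, which encodes the collagen chaperone HSP47, was at 75.1, 112 and 91.5 FPKM in wild-type and 49.3, 41.6 and 44.5 FPKM in the Plekhg5-deficient animals. Dpt encodes dermatopontin, a small matrix protein that binds decorin and speeds collagen fibril formation. Its levels were 86.8, 144 and 114 FPKM in wild-type and 49.2, 33.3 and 33.2 FPKM in the Plekhg5-deficient animals (log2 fold change -1.54, SE 0.26, limma adjusted p = 0.383). Like Fmod, Dpt is among the transcripts that the study called lower with the Cufflinks package. The study placed it, too, with transcripts enriched in isolated Schwann cells.

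Among the members, Prelp (r = 0.863) was most like Fmod, followed by Podn (0.70), Omd (0.653) and Dcn (0.608), while Lum (0.047) and Ogn (-0.511) were least alike. The genes most like Dcn were Fam129a (0.994), Rab43 (0.986), Vit (0.985), Trak2 (0.985) and Hhex (0.983). Vit encodes vitrin, a matrix protein, and was at 21.6, 28.4 and 36.9 FPKM in wild-type and 24.6, 21.9 and 18.5 FPKM in the Plekhg5-deficient animals.

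Of 14 fibrillar and fibril-associated collagens, the ligands of these proteoglycans, 11 had a log2 fold change below 0 and 3 above, with a median of -0.28. None passed at an adjusted p under 0.05 from limma, and at an unadjusted p under 0.05 there were 4 lower and 1 higher. Over all genes tested, 48.9% were below 0, and at that unadjusted limit 573 (2.69%) were lower and 514 higher. The chains of type I collagen, to which fibromodulin and lumican bind, overlapped between genotypes, with Col1a2 at 99.2, 132 and 121 against 126, 107 and 70.6 FPKM and Col1a1 at 65.2, 111 and 88.8 against 62.6, 70.2 and 43.6 FPKM. Col3a1 did not overlap, with 68.4, 59.0 and 78.9 FPKM in wild-type and 58.6, 44.2 and 25.2 FPKM in the Plekhg5-deficient animals (log2 fold change -0.75, adjusted p = 0.972).

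The 4 lower collagen genes were Col6a1, Col6a2, Col6a3 and Col2a1. Type VI collagen forms beaded microfilaments that bind decorin and biglycan, and its 3 main chains had log2 fold changes of -0.55, -0.73 and -0.86, with Col6a3 at 23.3, 32.7 and 25.2 FPKM in wild-type and 14.4, 13.3 and 15.3 FPKM in the Plekhg5-deficient animals. The one higher was Col5a2, a chain of the type V collagen that starts fibrils, at 10.6, 12.7 and 9.88 against 21.3, 19.0 and 13.3 FPKM (log2 fold change 0.63). Its partner chain Col5a1 had a log2 fold change of -0.29.

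Of 26 tested genes for the processing, cross-linking and assembly of collagen, 23 were below 0 and 3 above, with a median of -0.30. None passed at an adjusted p under 0.05 from limma, and at an unadjusted p under 0.05 there were 6 lower and 0 higher. These 6 were Dpt, Serpinh1, Loxl2 (a lysyl oxidase homologue that cross-links collagen), Pcolce and Pcolce2 (enhancers of procollagen C-proteinase) and Adamts2 (which removes the N-propeptide). Pcolce was at 178, 194 and 274 FPKM in wild-type and 143, 136 and 140 FPKM in the Plekhg5-deficient animals. Loxl2 was at 1.77, 2.17 and 2.47 against 0.883, 0.689 and 1.0 FPKM. Lox, the lysyl oxidase itself, was among the 3 genes above 0, at 18.0, 41.9 and 36.3 against 47.3, 37.1 and 35.7 FPKM (log2 fold change 0.38), and overlapped. Sparc, the most abundant gene of the list and a collagen-binding protein, overlapped, at 2155, 3537 and 2360 against 2819, 2475 and 1360 FPKM.

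**Figure D4:**
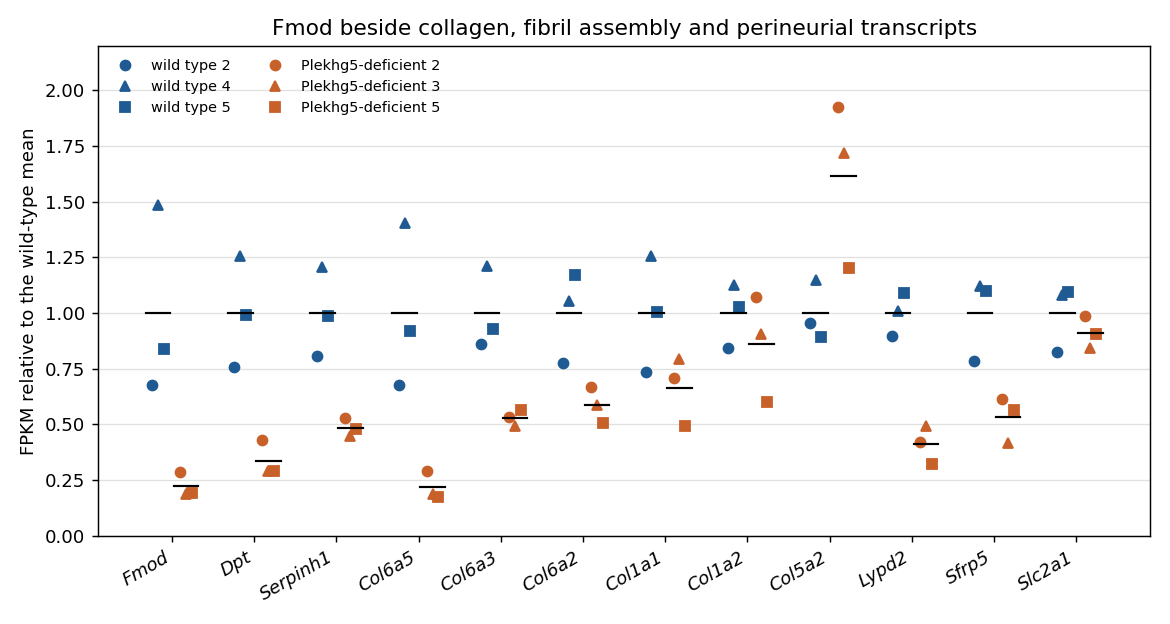
FPKM relative to the wild-type mean of Fmod, of collagen and fibril assembly genes, and of perineurial markers (Lypd2, Sfrp5, Slc2a1), in 3 wild-type (blue) and 3 Plekhg5-deficient (orange) nerves, with bars at the means of 3. Col1a1, Col1a2 and Slc2a1 overlap between genotypes, Col5a2 is higher in Plekhg5-deficient nerves, and the others are lower without overlap. Col6a5, Serpinh1 and Dpt are among the genes most like Fmod over these same libraries, so their separation is not independent of that choice. Not every gene of the lists is shown, and Sparc, Lox and Col6a1, which are left out, overlapped.

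A list of 29 tested genes held enzymes that build the glycosaminoglycan chains of these proteins, and the tyrosine sulfotransferases Tpst1 and Tpst2. Of the 29, 20 were below 0 (48.9% of all genes tested were) and 9 above, with a median of -0.14. At an unadjusted p under 0.05, as for 2.69% of all genes tested, 1 was lower. This was Dse, the epimerase that makes dermatan sulfate, at 4.35, 5.46 and 5.39 FPKM in wild-type and 3.11, 3.0 and 2.12 FPKM in the Plekhg5-deficient animals. The tyrosine sulfotransferase Tpst1, one of a pair of enzymes that sulfate the N-terminal tyrosines of fibromodulin, was at 22.3, 27.5 and 21.3 against 21.4, 21.3 and 16.3 FPKM.

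For TGF-beta, a growth factor that decorin, biglycan and fibromodulin bind, 12 of 14 genes of ligands, receptors and latent binding proteins were below 0, with a median of -0.22. The 1 gene at an unadjusted p under 0.05 was Tgfb3, at 15.3, 15.5 and 22.1 FPKM in wild-type and 10.5, 9.26 and 12.4 FPKM in the Plekhg5-deficient animals. The receptor gene Tgfbr1 was higher without overlap, at 3.64, 4.71 and 4.44 against 7.48, 4.74 and 8.07 FPKM (log2 fold change 0.54). Ltbp4, Tgfbi and Tgfbr2, the most abundant of these, overlapped. Of 9 receptors reported to bind soluble members of the family, 6 were below 0 and 3 above, all overlapping, among them Lrp1 (log2 fold change -0.36), Cd14 (0.38) and Egfr (-0.13). Of 11 proteases that cleave these proteins, 10 were below 0, with a median of -0.24, and Mmp2 (-0.63) and Mmp9 (-0.67) were lower at an unadjusted p under 0.05. Over all genes tested, 48.9% were below 0 and 2.69% were lower at that limit. Htra1 and Mmp14 overlapped.

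Markers of the cells that could be a source of these transcripts were compared in the same way, and 0 of them passed at an adjusted p under 0.05 from limma. All 10 perineurial markers were below 0, against 48.9% of all genes tested, with a median of -0.27. This was not particular to them. All 8 smooth muscle markers (median -0.31) and all 10 lymphoid markers (median -1.06) were below 0 too, while all 9 erythroid markers tested were above 0. The summed level of the perineurial markers was 663 to 928 FPKM in wild-type and 465 to 618 FPKM in the Plekhg5-deficient animals, with no overlap. This separation rests on Sfrp5 and Lypd2, since the sum of the other 8 was 236 to 350 FPKM in wild-type nerves and 235 to 316 FPKM without Plekhg5. These 2 markers were the ones that did not overlap one by one, as did not 5.88% of all genes tested in that direction. Lypd2 was at 106, 119 and 128 FPKM in wild-type and 49.3, 58.0 and 37.9 FPKM in the Plekhg5-deficient animals, and Sfrp5 at 321, 460 and 450 against 252, 172 and 232 FPKM. The defining markers Slc2a1, Cldn1 and Itgb4 of the perineurium overlapped, with log2 fold changes of -0.12, -0.16 and -0.048. Their part in the lower Fmod level was not tested.

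Of 12 fibroblast markers, 10 were below 0 (48.9% of all genes tested were) and 2 above, with a median of -0.45. Their summed level was 1246 to 1834 FPKM in wild-type and 1177 to 1319 FPKM in the Plekhg5-deficient animals, which overlapped. Dpt, Cd248 (-0.78) and Sfrp2 (-1.51) were lower at an unadjusted p under 0.05, as were 2.69% of all genes tested. Gsn (-0.68), at 368, 333 and 546 against 319, 182 and 280.5 FPKM, was lower without overlap, as were 5.88% of all genes tested. Mfap5 (-0.11), Ly6c1 (0.49) and Pdgfra (0.11), a receptor found on most fibroblasts, overlapped. The part of fibroblast transcripts in the Fmod level was not tested either.

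Of 10 Schwann cell markers, 5 were below and 5 above 0. For tendon, where Fmod is abundant, the marker Tnmd was at 0.215 to 0.876 FPKM and Scx at 0.401 to 2.67 FPKM. Of 6 tendon markers tested 3 were below and 3 above 0, with a summed level of 45.9 to 79.0 FPKM in wild-type and 50.4 to 67.8 FPKM in the Plekhg5-deficient animals. Most of that sum was Thbs4, at 40.3, 54.4 and 74.15 FPKM in wild-type and 62.9, 43.2 and 56.65 FPKM in the Plekhg5-deficient animals. Of 5 cartilage and bone markers tested, whose summed level was 1.93 to 3.90 FPKM over the libraries, 1 was lower at an unadjusted p under 0.05, namely Col2a1, at 1.60, 2.19 and 1.71 FPKM in wild-type and 0.836, 0.766 and 0.688 FPKM in the Plekhg5-deficient animals. Of 7 choroid plexus and meninges markers, 4 were below 0 and 3 above. At an unadjusted p under 0.05, 2 were lower, against 2.69% of all genes tested. These were Slc6a13 (log2 fold change -0.49) and Ttr, at 13.9, 8.67 and 13.8 FPKM in wild-type and 0.926, 1.85 and 1.61 FPKM in the Plekhg5-deficient animals. Kcnj13 went the other way without overlap, at 24.7, 27.3 and 33.3 against 40.7, 33.4 and 34.5 FPKM (log2 fold change 0.34), and Ptgds overlapped. The part of these cells in the Fmod level was not tested. Smooth muscle, endothelial, white adipocyte and erythroid markers had 0 genes higher at an unadjusted p under 0.05, and Lep of the adipocyte markers was lower (log2 fold change -2.04).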

How the data were processed

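Sciatic nerve RNA of 3 wild-type and 3 Plekhg5-deficient mice was made into libraries with the SENSE mRNA-Seq kit and sequenced on an Illumina NextSeq. The authors produced the deposited FPKM: reads were trimmed with Trim Galore 0.4.0, checked with FastQC 0.10.1, mapped to GRCm38 with STAR, and FPKM per gene and library were estimated with Cufflinks 2.2.1. The deposited tables hold no counts, and the read depth, the annotation release and the strand setting are not stated in the sources used here, so the precision was judged from the intervals of Cufflinks. Replicates are separate animals.

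Each library was scaled by its median-of-ratios factor. Genes averaging 0.1 FPKM or more in 1 of the genotypes entered a limma 3.58.1 fit (R 4.3.3) of log2(FPKM + 1) on genotype, with the variance trended on the mean and p-values adjusted by Benjamini-Hochberg over 21285 genes, and were called at an adjusted p under 0.05. The script was tested on simulated data. Single values were compared with an exact two-sided permutation test. Standard errors of log2 fold changes had a median of 0.222. Summaries used Python 3.11.15 with pandas 2.3.3, and figures matplotlib 3.10.9.

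The members and gene lists were chosen with earlier results of these data known. Genes named are the 10 members, 7 further genes of the family, Plekhg5, the 3 most abundant tested members of each list or any that passed, and the 5 genes most like Fmod and Dcn, not all of which are described. Some results are not reported here. Chosen after their values were seen were those named for an unadjusted p under 0.05, and Col5a1, Lox, Tgfbr1, Cldn1, Itgb4, Pdgfra and Tnmd. Of the names in the assembly list, P3h1, P3h3 and P3h4 were not found. Promoters came from RefSeq on GRCm38.p6 and were matched by symbol for 8 of the 10 members. Dcn and Lum had no entry. Alternatives were other pseudocounts, filters, scalings and variance models, a replicate block, and leaving out libraries.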

Additional observations from a re-analysis of the deposited data

How the results depend on the processing

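Fmod was below 0 under all 18 alternatives, from -2.23 to -1.68 on the log2 scale, with an adjusted p from limma of 0.113 to 0.692, so that it passed the test in none of them. Its share of the summed members differed by -0.961 to -0.575 percentage points. With the FPKM as deposited the median of all genes was -0.094, and at an unadjusted p under 0.05 the split was 753 lower to 239 higher, against 573 to 514 after scaling. The number of genes lower at an adjusted p under 0.05, 2 in the analysis reported, was 1 with a pseudocount of 0.1, with a minimum of 1 FPKM and with a robust variance, 0 without a filter and without both libraries numbered 5, and 8 with array weights. The number higher, 6 in the analysis reported, was 2 without a filter and 14 with array weights. Leaving out each library in turn gave 0 to 0 lower and 0 to 5 higher. Leaving out each library gave -0.076 to 0.40 for Lum, -0.23 to 0.010 for Omd and -0.21 to 0.080 for Aspn, with the sign reversed without wild-type nerve 2, wild-type nerve 4 and Plekhg5-deficient nerve 3. With a replicate block over the 2 shared numbers, 2 genes were lower and 6 higher, Fmod stood at -1.92 and the estimated correlation was 0.262. The labels do not say that a number marks a shared litter or day, and deviations of same-numbered libraries correlated at 0.073 and 0.580 against -0.522 to 0.457 for the others, so the numbers were not taken to pair animals. Causes of these shifts were not tested. No read depth is known. For Fmod, the coefficient of variation among 3 animals was above the half-width of the Cufflinks intervals in both genotypes. This did not hold for every member. For Omd in Plekhg5-deficient nerves the half-width was 7.86% to 9.54%, against a coefficient of variation of 7.49%.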
